A study of Mus musculus with 12 samples.

Results

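The genes described here encode subunits of the CCT chaperonin (also called TRiC), and were taken by symbol from a fixed list of 7, namely Tcp1, Cct2, Cct3, Cct4, Cct5, Cct7 and Cct8. All 7 were found among the 11706 genes of the expression table, and all 7 passed the filter of a mean of at least 1 RPKM (a read count per length of gene and size of library), which 11142 genes passed. RNA had been sequenced from cultured natural killer (NK) cells of the mouse, lymphocytes of the innate arm that lyse tumour and virus-infected targets. Other subunit genes of the complex were not analysed here.

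CCT is a barrel of stacked rings in the cytosol, built from related but distinct ATP-binding subunits. In the assembled complex each subunit holds a fixed place, once in each ring, and in human proteins CCT4 and CCT5 can also form rings of their own. The barrel encloses newly made proteins, among them actin and the tubulins, and releases them folded. Prefoldin hands substrates to it, phosducin-like proteins assist it, and tubulin cofactors take over its tubulin products. Activated lymphocytes grow and divide, and make much actin and tubulin as they do.

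All cells came from the spleens of C57BL6 mice. Expansion took 6 days with IL-15 (10 ng per mL). NK cells were then purified with magnetic beads, and the labels give each library an 18-hour stimulation, with IL-12 (10 ng per mL) and IL-2 (330 U per mL) together. The WT group (genotype NCR1Cre het, n = 3) carried the Cre recombinase of the Ncr1 gene, which is active in NK cells. The KO group (NCR1Cre het PKM2fl/fl) carried the same Cre with floxed alleles of the M2 form of pyruvate kinase. KO had 3 labelled replicates, of which 2 had a column and were used. The vehicle group (genotype WT, DMSO at 0.1%, n = 3) and the TEPP-46 group (genotype WT, n = 3) formed a drug experiment, TEPP-46 being an activator of PKM2. The design text puts TEPP-46 at 50 µM and names PBS, while the sample labels put it at 50 mM. Replicates are called biological; the age of the animals and any pooling of them are not stated in the labels.

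Of 10 NK cell markers all 10 were measured, and their summed level ran from 5427 to 5907 RPKM in the libraries labelled WT, from 5546 to 5618 RPKM in those labelled KO and from 17809 to 20389 RPKM in the drug experiment. Most of that sum was Gzmb, the granzyme B gene, at 2753 ± 131 RPKM in WT and 14780 ± 789 RPKM in vehicle (SD, n = 3 each). Between vehicle and the libraries labelled WT, 4 of the 10 markers passed as higher, 4 as lower (Klrb1c, Ncr1, Itga2 and Eomes) and 2 did not pass. Ncr1, a defining receptor of NK cells, had means of 238, 245, 97.8 and 115 RPKM in WT, KO, vehicle and TEPP-46. Of the 5 B cell and 3 erythroid markers listed, 0 were among the genes measured, so nothing is said of those cells. Pkm, the targeted gene, averaged 206 ± 12.7 RPKM (SD, n = 3) for WT and 77.5 ± 1.27 RPKM (SD, n = 2) for KO, a ratio of 0.377. Pkm also makes an M1 form, and a level for the whole gene does not separate the forms. The authors' deposited table gives Pkm a KO to WT ratio of 0.539 for the state headed 2/12 and of 0.396 for the state headed US. Ifng, the gene of interferon gamma, was at 23.4 ± 0.732 RPKM in the libraries labelled WT and at 1044 ± 35.6 RPKM in vehicle (SD, n = 3 each), although both are labelled as given IL-2 and IL-12. The vehicle to WT ratio of Pkm was 5.27, beside 5.78 in the authors' deposited table for WT in the state headed 2/12 over WT in the state headed US. The labels and these values therefore leave in doubt whether the libraries of the genotype experiment were stimulated, and they are called the libraries labelled WT or KO. Every difference between the experiments, and every difference of effects, is to be read with that doubt. Since the table gives no read totals, depth is unknown and intervals of counting error cannot be given.

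Each member lies on a chromosome of its own, given here in the GRCm38 build (mm10), and is protein-coding. Tcp1, the alpha subunit (ENSMUSG00000068039), lies on chromosome 17 from 12915701 to 12925067, plus strand. Cct2, the beta subunit (ENSMUSG00000034024), lies on chromosome 10 from 117051001 to 117063814, minus strand. Cct3, the gamma subunit (ENSMUSG00000001416), lies on chromosome 3 from 88297116 to 88321767, plus strand. Cct4, the delta subunit (ENSMUSG00000007739), lies on chromosome 11 from 22990519 to 23003780, plus strand. Cct5, the epsilon subunit (ENSMUSG00000022234), lies on chromosome 15 from 31590800 to 31601804, minus strand. Cct7, the eta subunit (ENSMUSG00000030007), lies on chromosome 6 from 85451514 to 85468475, plus strand, and Cct8, the theta subunit (ENSMUSG00000025613), on chromosome 16 from 87483326 to 87495873, minus strand.

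Promoter windows were taken from RefSeq (GRCm38.p6), from 250 bases before to 50 bases after each start, and were matched for 6 members with 8 windows in all. The 150 bases before the start are shown for 4 of the members that hold CCAAT or CCGGAAG, each found in 3 members. Cct2, which also holds CCGGAAG, is not shown. The 4 range from Cct3, the gene that differed most between experiments, to Cct8, the one nearest to the mean of the set. Each stretch is read 5′ to 3′ on the gene's own strand, from the start in RefSeq, which need not be the gene boundary given above. Capitals mark CCAAT, its reverse complement ATTGG, or CCGGAAG, the core read by ETS factors; the spans are chr3:88296985-88297134 (plus strand) for Cct3, chr6:85451355-85451504 (plus) for Cct7, chr17:12916179-12916328 (plus) for Tcp1 and chr16:87495870-87496019 (minus) for Cct8.
Cct3: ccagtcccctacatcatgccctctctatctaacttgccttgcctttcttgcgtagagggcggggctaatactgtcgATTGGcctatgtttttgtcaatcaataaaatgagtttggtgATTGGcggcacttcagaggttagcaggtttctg
Cct7: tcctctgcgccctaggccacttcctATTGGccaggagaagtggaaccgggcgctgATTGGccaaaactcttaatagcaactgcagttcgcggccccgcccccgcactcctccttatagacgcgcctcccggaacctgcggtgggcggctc
Tcp1: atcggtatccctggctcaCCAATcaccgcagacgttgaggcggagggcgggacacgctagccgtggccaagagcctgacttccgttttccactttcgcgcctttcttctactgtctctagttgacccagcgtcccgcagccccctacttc
Cct8: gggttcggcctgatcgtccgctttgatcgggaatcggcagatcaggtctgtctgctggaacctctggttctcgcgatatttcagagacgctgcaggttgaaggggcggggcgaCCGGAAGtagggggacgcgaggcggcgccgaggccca

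In these stretches the reverse CCAAT motif of Cct3 began 74 and 33 bases before the start, and that of Cct7 began 125 and 95 bases before it. A further CCAAT match of Cct7 lay before its stretch and a CCGGAAG match of Tcp1 ran across the start, so neither is marked. Tcp1 held CCAAT on its own strand 132 bases before the start, and Cct8 held CCGGAAG 37 bases before it. Over the whole windows and on both strands, CCAAT was in 3 of the 8 member windows (Cct3, Cct7 and Tcp1) and in 37.9% of the windows of tested genes. CCGGAAG was in 3 of the 8 member windows (Cct2, Cct8 and Tcp1), against 20.2%. The heat shock half-site pairs TTCNNGAA and GAANNTTC were each in 1 of the 8 (Cct5 and Cct2), against 7.22% and 5.73%. The letters of the MYC E-box CACGTG were in none of the 8 windows, against 10.2%. The palindromic NRF1 motif was in 1 of the 8 (Cct5), against 2.31%. A match is a description of the letters only.

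All 7 subunit genes were expressed at a high level in every library, and their levels fell into separate ranges by experiment. The summed RPKM of the set was 683 ± 20.5 (SD, n = 3) in the libraries labelled WT and 637 ± 6.69 (SD, n = 2) in those labelled KO. It was 1748 ± 134 in vehicle and 1523 ± 108 under TEPP-46 (SD, n = 3 each). For scale, the medians over all tested genes were 13.2 to 14.4 RPKM in the 11 libraries. In bulk RNA, fewer cells of a type and less RNA per cell cannot be told apart.

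Cct5 was the highest member in every group, averaging 154 ± 1.21 RPKM in WT and 323 ± 23.3 RPKM in vehicle (SD, n = 3 each). Below Cct5 the order by RPKM, which is per length, was not the same in both experiments. In the libraries labelled WT it was Cct2 (130 RPKM), Cct4 (97.1), Cct7 (89.1), Tcp1 (84.1), Cct8 (73.8) and Cct3 (54.9). Only Cct7 and Tcp1, which stood next to each other in that order, had overlapping ranges. In KO the order was the same, with no overlap between neighbours. In vehicle the order was Cct2 (273), Cct7 (272), Tcp1 (269), Cct3 (250), Cct8 (202) and Cct4 (160). There Cct2 and Cct7, Cct7 and Tcp1, and Tcp1 and Cct3 overlapped. Under TEPP-46, Tcp1 (242), Cct2 (239) and Cct7 (237) overlapped and were followed by Cct3 (206), Cct8 (174) and Cct4 (137) without overlap.

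**Figure D1:**
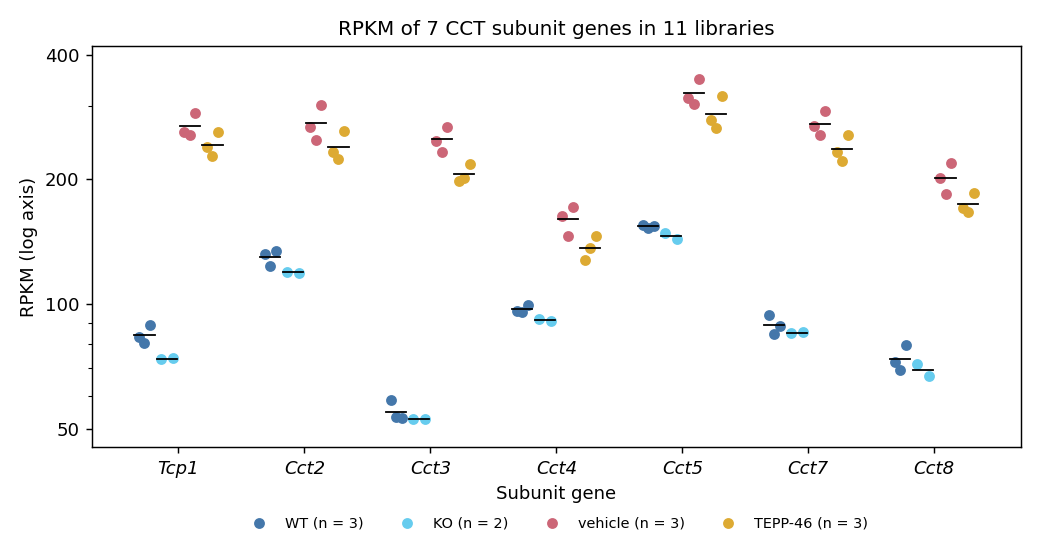
RPKM (log axis) of the 7 subunit genes in 11 libraries, 1 point per library and a bar at each group mean. All vehicle and TEPP-46 points lie above all points of the libraries labelled WT and KO for the same gene, Cct3 being the lowest member in the latter at 52.6 to 58.5 RPKM.

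The comparison of vehicle with the libraries labelled WT shows the widest difference of the set, though the groups also differ in the Cre allele, in DMSO, in the experiment they belong to and possibly in stimulation, and these cannot be told apart. All 7 members were higher in vehicle (limma, adjusted p from 7.49e-09 to 7.45e-06 over all genes tested), without overlap between groups. In this comparison 75.3% of all tested genes passed, 38.6% passed as higher and 39.6% lay higher without overlap, so passing is common. The median log2 difference of the members was 1.44, against 0.004 over all tested genes. The widest difference was that of Cct3, whose RPKM was 58.5, 53.4 and 53.0 in the libraries labelled WT and 248, 233 and 268 in vehicle. The vehicle level was 4.55-fold that of the libraries labelled WT, with a log2 difference of 2.16 (SE 0.07, limma adjusted p = 7.49e-09). Cct4 had the smallest difference. Its RPKM was 96.4, 95.6 and 99.3 in the libraries labelled WT and 163, 146 and 171 in vehicle, a ratio of 1.65 and a log2 difference of 0.71 (SE 0.07, limma adjusted p = 7.45e-06). With quantile normalization the log2 difference of Cct4 was 0.44 and that of Cct3 1.89, both still past the threshold.

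The other members lay between these. Tcp1 was at 83.3, 80.3 and 88.7 RPKM in the libraries labelled WT and at 260, 255 and 290 RPKM in vehicle, 3.19-fold higher. Cct7 ranged from 84.8 to 94.2 RPKM and from 256 to 292 RPKM, 3.05-fold higher. Cct8 ranged from 69.3 to 79.6 RPKM and from 184 to 220 RPKM, 2.73-fold higher. None of these groups overlapped. Cct2 ranged from 124 to 134 RPKM and from 249 to 302 RPKM, and Cct5 from 153 to 155 RPKM and from 304 to 349 RPKM, so that both were 2.10-fold higher. The intervals of Cct3 (95%, log2 difference from 2.02 to 2.31) and Cct4 (from 0.56 to 0.87) did not meet that of Tcp1 (from 1.51 to 1.82).

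Ratios between 2 members within a library do not depend on how that library was scaled, and they too were unequal. The ratio of Cct3 to Cct4 was between 0.533 and 0.607 in the libraries labelled WT and between 1.52 and 1.60 in vehicle, so that the order of this pair switched. An exact two-sided permutation test gave p = 0.1, the smallest that 3 against 3 libraries allow. Of the 21 pairs of members, 19 had ratios that did not overlap between these groups. Among all pairs of tested genes 78.2% had ratios without overlap, so the count is no sign of anything particular to these genes, and pairs share genes. The exceptions were Tcp1 with Cct7 and Cct2 with Cct5, whose log2 ratio changed by 0.002. As a share of the summed RPKM of the set, Cct3 went from 8.05% ± 0.434 in the libraries labelled WT to 14.3% ± 0.101 in vehicle (SD, n = 3 each). Cct4 went from 14.2% ± 0.278 to 9.16% ± 0.272. The members were closer to each other in the drug experiment, where the highest was between 1.93 and 2.19 times the lowest, than in the genotype experiment, where it was between 2.65 and 2.92 times.

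**Figure D2:**
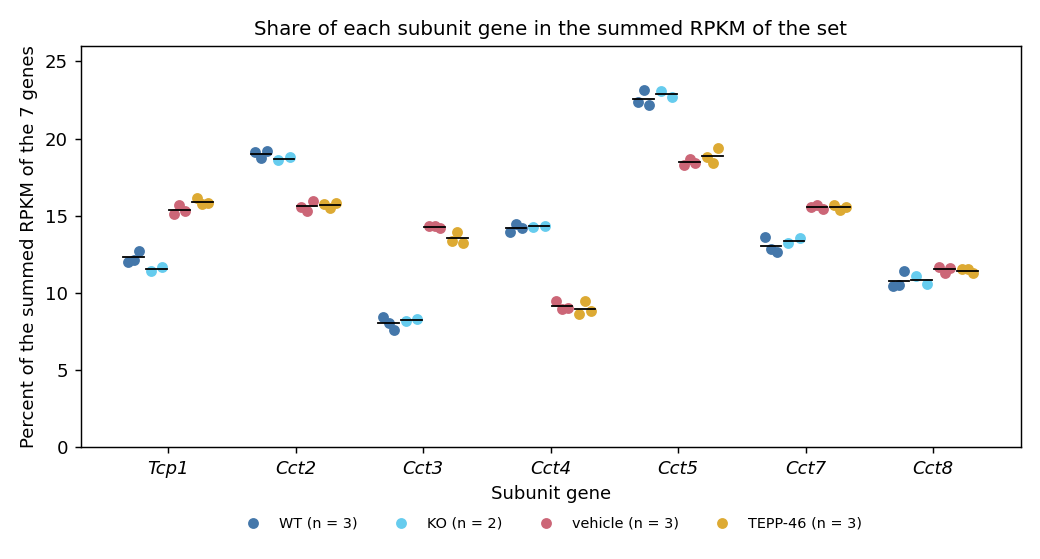
Share of each gene in the summed RPKM of the 7 genes (percent), 1 point per library with a bar at each group mean. Tcp1, Cct3 and Cct7 hold larger shares in the drug experiment (vehicle, TEPP-46) and Cct2, Cct4 and Cct5 larger shares in the genotype experiment (WT, KO).

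Markers of activation, proliferation and other cells moved with this comparison. Ifng and Il2ra, induced in activated NK cells, summed to between 26.6 and 27.9 RPKM in the libraries labelled WT and between 1050 and 1119 RPKM in vehicle. Mki67 and Top2a, markers of dividing cells, summed to between 151 and 191 RPKM in the libraries labelled WT and between 539 and 593 RPKM in vehicle. Of 8 T cell markers 3 were measured, with sums of 106 to 134 RPKM in the libraries labelled WT and at most 28.1 RPKM in vehicle. Of 9 granulocyte, basophil and mast cell markers 6 were measured, with sums of 84.0 to 202 and of 6.83 to 17.3 RPKM. Of 6 macrophage and dendritic cell markers only Itgax was measured, an integrin chain that NK cells also make, at 256 to 278 and 9.80 to 10.4 RPKM. No measured marker of these lists was listed at 0 in every library. Their part in the difference of the chaperonin genes was not tested.

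The genotype comparison asks what loss of PKM2 does to NK cells. None of the 7 members passed in it (limma, adjusted p from 0.564 to 0.863; 1 of 7, Tcp1, had an unadjusted p under 0.05, against 7.94% of all tested genes in either direction and 5.53% in the lower one). The share of all tested genes that passed was 0.0987%. The fitted differences were below 0 for 7 of 7 members, against 49.7% of all tested genes, with a median log2 difference of -0.09 against 0 over all genes. Because the members share libraries and tend to vary together, their common sign is not 7 separate results. That median was -0.035 with quantile normalization.

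Tcp1 had the widest difference. Its RPKM was 73.5 and 74.0 in KO, below the 80.3 to 88.7 of the libraries labelled WT. The KO to WT ratio of means was 0.877, and the log2 difference was -0.19 (SE 0.06, 95% interval from -0.34 to -0.04, limma adjusted p = 0.564, lower in 2 of 2 KO libraries). The exact two-sided permutation p was 0.1, the smallest that 3 against 2 libraries allow. Cct2, Cct3, Cct4 and Cct5 also had both KO libraries below all libraries labelled WT, whereas Cct7 and Cct8 overlapped. Their exact two-sided permutation p was 0.1 for Cct4 and Cct5, 0.2 for Cct2, 0.5 for Cct3 and 0.4 for Cct7 and Cct8. Of all tested genes 14.5% had KO libraries entirely below. Cct2 was at 119 and 119 RPKM in KO and at 132, 124 and 134 RPKM in the libraries labelled WT, a ratio of 0.917. The remaining ratios were 0.937 for Cct8, 0.941 for Cct4, 0.947 for Cct5, 0.957 for Cct7 and 0.958 for Cct3. Cct4 was at 91.8 and 90.9 RPKM in KO against 95.6 to 99.3 RPKM, and Cct5 at 148 and 143 RPKM against 153 to 155 RPKM. Cct3 was at 52.6 and 52.7 RPKM in KO, only just below the 53.0 to 58.5 RPKM of the libraries labelled WT. The widest 95% interval of these 5 genes was that of Cct8, from -0.29 to 0.11 on the log2 scale.

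Within libraries, the 6 ratios of Tcp1 to the other members were lower in both KO libraries than in all libraries labelled WT, and the other 15 pairs overlapped. That is 6 of 21 pairs, where 27% of all pairs of tested genes did not overlap. For Tcp1 with any other tested gene the share was 58.4%. The ratio of Tcp1 to Cct5 was 0.495 and 0.516 in KO and between 0.526 and 0.574 in the libraries labelled WT. The 6 ratios share the values of Tcp1, and their exact two-sided permutation p was 0.1 for the ratio to Cct8 and 0.2 for the other 5. Mki67 and Top2a summed to between 105 and 108 RPKM in KO, below the libraries labelled WT. The T cell markers summed to between 35.4 and 49.8 RPKM and the granulocyte, basophil and mast cell markers to between 46.6 and 74.6 RPKM, both below the libraries labelled WT as well. The T cell sum followed Cd3g, at 10.5 ± 5.78 RPKM in KO (SD, n = 2) against 85.0 ± 15.2 RPKM (SD, n = 3), whereas Lef1 of the same list was at 27.3 ± 1.93 against 24.3 ± 2.75 RPKM. The part of these cells in the differences of the members was not tested.

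The drug comparison addresses the effect of a PKM2 activator on stimulated NK cells. All 7 members had lower means under TEPP-46, at between 0.825 and 0.902 of the vehicle level, but none passed over all genes (limma, adjusted p from 0.367 to 0.610). No gene of the whole table passed (0%), and 1051 of the 11142, or 9.43%, had an unadjusted p under 0.05. The authors' deposited table for this comparison lists 24 genes, and that for KO 11, and none of the 7 members is in the rows used here. By their titles both lists hold only genes past a fold cut wider than the members' differences. Absence from them therefore says nothing of the members. Among the members 4 of 7 had an unadjusted p under 0.05 (Cct3, Cct4, Cct7 and Cct8), all on the lower side, where 4.68% of all tested genes did. The members share libraries and tend to vary together, and were chosen with earlier results of these data known. Their count is therefore not a set of separate results, and its excess over that share was not tested. The median log2 difference of the members was -0.20 against -0.02 over all tested genes, of which 56.6% lay below 0.

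Cct3 had the widest fitted difference, though its 95% interval overlapped that of every other member. It was also widest between vehicle and the libraries labelled WT, but the vehicle libraries are in both comparisons, so that is no separate result. The RPKM of Cct3 was 248, 233 and 268 in vehicle and 198, 202 and 218 under TEPP-46, so the groups did not overlap. The log2 difference was -0.28 (SE 0.07, 95% interval from -0.45 to -0.11, limma adjusted p = 0.367, lower in 3 of 3 TEPP-46 libraries), with an exact two-sided permutation p of 0.1, the smallest possible. Cct4 was at 163, 146 and 171 RPKM in vehicle and at 128, 137 and 146 RPKM under TEPP-46, the highest TEPP-46 value lying just under the lowest of vehicle. Its log2 difference was -0.23 (SE 0.08, limma adjusted p = 0.484). Of all tested genes 7.71% lay without overlap on the lower side. The other 5 members overlapped between groups, although each was lower under TEPP-46 between libraries of the same replicate number. Cct8 ranged from 184 to 220 RPKM in vehicle and from 166 to 185 RPKM under TEPP-46, and Cct7 from 256 to 292 and from 222 to 256 RPKM. Cct5 ranged from 304 to 349 RPKM in vehicle and from 266 to 319 RPKM under TEPP-46, and Cct2 from 249 to 302 and from 224 to 261 RPKM. Tcp1 differed least, at 255 to 290 and 227 to 261 RPKM, with a 95% interval from -0.34 to 0.04 on the log2 scale.

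The proportions among members differed little between TEPP-46 and vehicle. The widest change of a log2 ratio between 2 members was 0.13, for Tcp1 with Cct3, against 1.47 between vehicle and the libraries labelled WT for Cct3 with Cct4. Of the 21 pairs 5 did not overlap between TEPP-46 and vehicle, and 4 of these 5 involved Cct3. Among all pairs of tested genes 15.9% did not overlap, and among pairs of Cct3 with another tested gene 52.9%. Its share of the summed RPKM was 14.3% ± 0.101 in vehicle and 13.5% ± 0.385 under TEPP-46 (SD, n = 3 each). The summed level of Mki67 and Top2a was 489 to 529 RPKM under TEPP-46, below vehicle, that of Ifng and Il2ra was 831 to 941 RPKM, also below, and that of the 10 NK cell markers was 19960 to 20389 RPKM against 17809 to 19321 RPKM. The part of these in the members' differences was not tested.

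**Figure D3:**
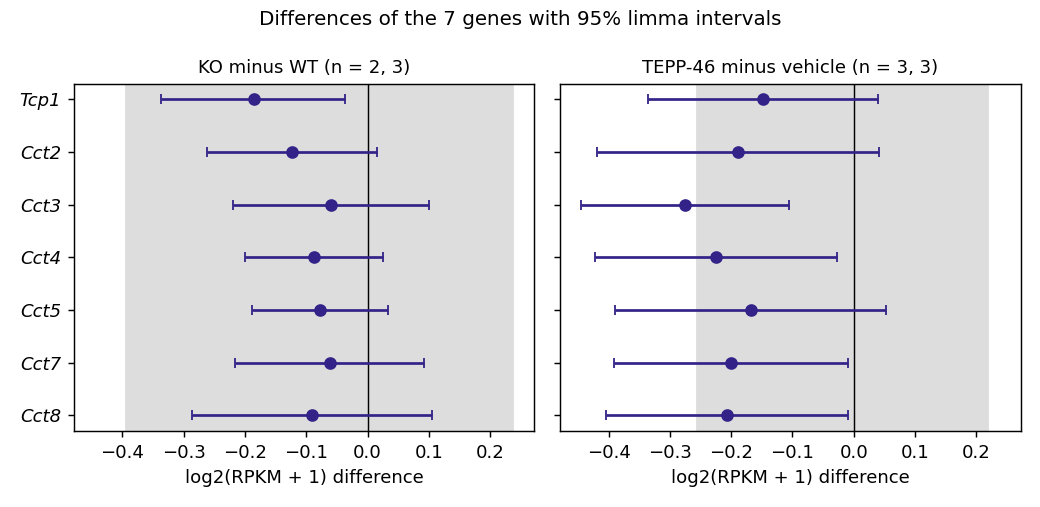
Difference in log2(RPKM + 1) of each gene, KO minus WT on the left and TEPP-46 minus vehicle on the right, with 95% limma intervals; the grey band holds the middle 90% of all tested genes. All 14 points lie below 0, and the interval excludes 0 for Tcp1 on the left and for Cct3, Cct4, Cct7 and Cct8 on the right.

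The effects of the drug and of the genotype on the members were set against each other in 1 model over all 11 libraries. None of the 7 passed (limma, adjusted p from 0.747 to 0.976, with 0 of 7 at an unadjusted p under 0.05), where 0.0539% of all tested genes passed and 6.72% had an unadjusted p under 0.05. For Cct3 the drug difference minus the genotype difference was -0.22 (95% interval from -0.44 to 0.01). For Tcp1 it was 0.04 (from -0.20 to 0.27). The comparison of vehicle with the libraries labelled WT shares its samples with both other comparisons, so their values are side by side only.

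Once the group means were taken out, the members tended to deviate together, but not in every library. In WT replicate 3, Cct3 was at the lowest value of its group (53.0 RPKM) and Tcp1 at the highest (88.7 RPKM). From TEPP-46 replicate 1 to replicate 2, Cct4 rose from 128 to 137 RPKM while Cct5 fell from 278 to 266 RPKM. Over the 11 libraries the correlation of their deviations from the group mean was between 0.583 and 0.950 for the 21 pairs, with a median of 0.817. These points share library, scaling and depth, and the values are a description. Correlations of other gene pairs were not computed, so they are not shown to be particular to the set. The mean deviation of the 7 members was highest in vehicle replicate 3 (0.12 on the log2 scale) and TEPP-46 replicate 3 (0.11), and lowest in vehicle replicate 2 (-0.10). Vehicle replicate 3 was the highest of its group for every member and TEPP-46 replicate 3 the highest of its own.

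Genes that start close to a member on the opposite strand, within 1000 bases, were measured for 3 members. Distances are between annotated gene boundaries, and the RefSeq starts used for the promoters can give other distances. Mrpl18, a mitochondrial ribosomal protein gene that starts 644 bases from Tcp1, had means of 43.5, 37.8, 107 and 103 RPKM in WT, KO, vehicle and TEPP-46. It was higher in vehicle than in the libraries labelled WT, with a log2 difference of 1.27 (SE 0.05, limma adjusted p = 3.63e-08). Pradc1, 456 bases from Cct7, was higher by a log2 difference of 0.81 (SE 0.09, limma adjusted p = 2.79e-05). Fam173b, 48 bases from Cct5, was higher by 0.29 (SE 0.08, limma adjusted p = 0.00800). In each pair the fitted difference of the member was the larger. Usp16, on the strand opposite to Cct8 and overlapping it, did not pass (log2 difference 0.28, SE 0.14, limma adjusted p = 0.0890). Whether reads were counted by strand is not known. None of the 4 passed in the genotype or the drug comparison (limma, adjusted p from 0.564 to 0.927).

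Tcp1 also contains a small nucleolar RNA gene, Gm26130, on its own strand and within its gene boundaries, so reads may be shared between them. It went the other way, from 248, 315 and 151 RPKM in the libraries labelled WT to 48.3, 59.2 and 20.5 RPKM in vehicle, a log2 difference of -2.52 (SE 0.55, limma adjusted p = 0.00198). In KO it was at 143 and 117 RPKM, below the libraries labelled WT, with a limma adjusted p of 0.639. Pseudogenes named after Tcp1 and Cct3 are annotated (Tcp1-ps1 and Cct3-ps1), and how reads matching them were counted is not known.

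The partners and substrates of the chaperonin were read next, from lists of its pathway. Their counts for vehicle stand beside 38.6% of all tested genes that passed as higher and 75.3% that passed in either direction, and those near these shares say nothing particular of a list. In vehicle, prefoldin had 5 of 6 members higher and 1 lower than in the libraries labelled WT (median log2 difference 0.81 against 0.004 over all genes). Pfdn4 was at 34.1 ± 4.34 against 15.7 ± 1.12 RPKM and Pfdn1 at 52.9 ± 1.94 against 32.4 ± 0.699 RPKM (SD, n = 3 each). Pfdn5, the member that was lower, was at 149 ± 3.24 against 336 ± 26.8 RPKM (log2 difference -1.17, SE 0.06, limma adjusted p = 1.34e-07). Prefoldin RNAs thus did not all move with those of the chaperonin.

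The substrates actin and tubulin had 11 of 12 measured members higher in vehicle and 1, Tubb4a, lower (median 1.70), out of 16 listed. Tubb2a was at 130 ± 19.6 against 13.4 ± 1.32 RPKM and Tuba1c at 355 ± 33.3 against 50.1 ± 8.34 RPKM (SD, n = 3 each). Tubb6 was at 206 ± 3.38 against 50.6 ± 6.40 RPKM. Tubulin genes are close copies of each other, and reads may be shared among them. Of 20 other reported substrates 13 were higher, 2 lower and 5 did not pass (median 0.47), with the mitotic kinase Plk1 at 40.3 ± 6.44 against 7.98 ± 1.04 RPKM.

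The assisting factors had smaller medians than the actins and tubulins. Of the 3 phosducin-like and thioredoxin-like cofactors 2 were higher, Pdcl3 and Txndc9 (median 0.23), and of 7 tubulin cofactors 4 were higher and 3 did not pass (median 0.27), Tbcb being at 76.9 ± 1.97 against 51.7 ± 5.95 RPKM. Of 9 genes of the R2TP and prefoldin-like complex, another assembly machine, 7 were higher (median 0.51), led by the ATPase genes Ruvbl2 (69.9 ± 5.59 against 19.1 ± 1.36 RPKM) and Ruvbl1. Of 9 heat shock factors and partner chaperones 6 were higher (median 0.62), among them Hspd1, the chaperonin of mitochondria, at 298 ± 67.5 against 68.9 ± 3.75 RPKM. Myc, a growth regulator, was at 75.2 ± 4.32 against 22.2 ± 1.46 RPKM, and Mxd4, whose protein competes for the same partner, at 15.8 ± 0.679 against 77.9 ± 4.77 RPKM (SD, n = 3 each). Of the 5 genes of that list 2 were higher and 3 lower.

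In the genotype and drug comparisons no gene of these 8 lists passed (limma over all genes). In KO the lowest unadjusted p were those of Cdc20, a mitotic activator folded by CCT (6.17 ± 0.141 against 10.7 ± 1.54 RPKM, limma adjusted p = 0.424), Plk1 (4.56 ± 0.354 against 7.98 ± 1.04 RPKM, adjusted p = 0.424) and Tuba1a (69.1 ± 4.72 against 86.9 ± 3.42 RPKM, adjusted p = 0.453). Of the 12 actins and tubulins 10 had lower means fitted in KO (median -0.20), with 4 at an unadjusted p under 0.05, and of the 20 other substrates 14 (median -0.06), again with 4. The tubulin cofactors went the other way in KO, with 4 of 7 above 0 (median 0.054). Medians were -0.114 for prefoldin, -0.1 for the phosducin-like cofactors, -0.091 for R2TP, -0.08 for the heat shock list and -0.03 for the Myc list. Prefoldin and the Myc list had 1 gene each at an unadjusted p under 0.05, and the remaining lists 0. Over all tested genes 49.7% lay below 0, 7.94% had an unadjusted p under 0.05 and 5.53% did so on the lower side. Mki67 and Top2a were lower in KO as well, with log2 differences of -0.57 and -0.64 (limma adjusted p of 0.228 and 0.474). Their part in the differences of the lists was not tested. Under TEPP-46, where 56.6% of all tested genes lay below 0 and 9.43% had an unadjusted p under 0.05, the actins and tubulins had a median of -0.08 with 10 of 12 below 0 and 0 at an unadjusted p under 0.05, and prefoldin a median of -0.09 with 5 of 6 below 0 and 0 at that level. The heat shock factors and partner chaperones had the lowest median of the 8 lists, -0.126 with 8 of 9 below 0. The R2TP list had a median of -0.084, also with 8 of 9 below 0. Medians were -0.028 for the other substrates, -0.017 for the phosducin-like cofactors, 0.015 for the tubulin cofactors and -0.009 for the Myc list. The tubulin cofactor gene Arl2 was at 5.50 ± 0.201 against 7.16 ± 0.871 RPKM (limma adjusted p = 0.408). Stat3, a signalling gene listed among the other substrates, was at 107 ± 6.80 against 86.3 ± 4.07 RPKM (SD, n = 3 each, limma adjusted p = 0.319). Hspe1, the partner of Hspd1, was at 186 ± 31.5 against 241 ± 45.8 RPKM (adjusted p = 0.571).

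**Figure D4:**
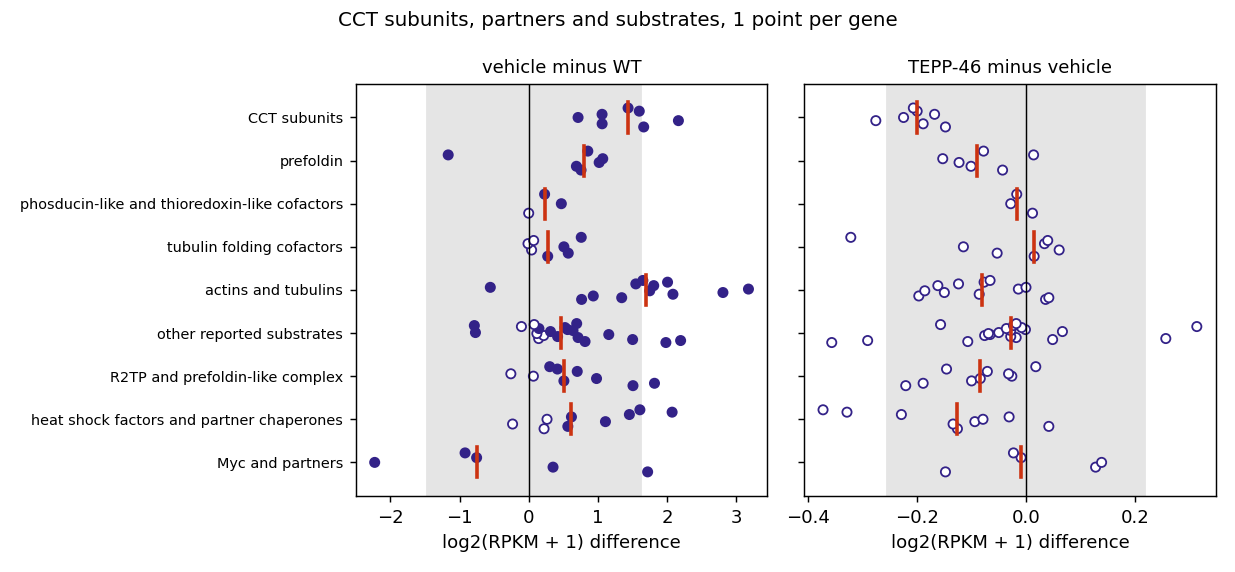
Difference in log2(RPKM + 1) for the subunits and 8 lists of partners and substrates, vehicle minus WT on the left and TEPP-46 minus vehicle on the right, 1 point per gene. Filled points passed the limma threshold, red bars are list medians and the grey band holds the middle 90% of all tested genes; no point passed on the right, where the 7 subunits lie between -0.28 and -0.15.

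The genes whose profile over the 11 libraries was most like the mean of the 7 members were sought among 6801 others with a mean of at least 10 RPKM, without further genes of the complex. Likeness was the root mean square distance between centred log2(RPKM + 1) values. The nearest were Rps27l, a ribosomal protein S27 relative (distance 0.031), the nuclear exporter Xpo1 (0.038) and Cse1l, which recycles importin alpha (0.043). They were followed by the kinase gene Mapk6 (0.046) and Eif2s2, a translation initiation factor subunit (0.046). Among the members themselves Cct8 lay nearest to the mean of the set (0.042), and Cct4 (0.344) and Cct3 (0.365) lay farthest. Xpo1 was at 38.2, 33.9, 97.1 and 85.6 RPKM in the means of WT, KO, vehicle and TEPP-46, which shows the shape that these genes and the set have in common.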

How the data were processed

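RNA was measured in 12 labelled samples in 4 groups, of which 11 had a column. The submitters' processing notes name STAR and mm10; the counting step and annotation are not stated there. The labels name a stranded poly(A) library, the design text total RNA. What the authors deposited is RPKM, rounded to 2 decimals. A further 5 library columns matched no sample and were not used. The authors deposited tables with a ratio of group means and a p-value for genes they listed; only the ratios of Pkm and the numbers of genes were used. IDs were matched to GENCODE M21 (11675 of 11706).

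From RPKM, log2(RPKM + 1) was computed where the mean reached 1 RPKM, with no further scaling. These fold changes understate changes of low genes. Tests used limma 3.58.1 under R 4.3.3 (variance trend, Benjamini-Hochberg over all genes tested, threshold 0.05), and the fits were checked on simulated data. The changes planted there were wider than the members' differences for KO and TEPP-46, so whether such small differences could pass was not checked. KO with WT and TEPP-46 with vehicle used the 2 groups compared; the other comparisons fitted the 4 group means to all 11 libraries. The permutation tests are two-sided and exact. The labels call replicates biological without naming animals, and p-values cover only the spread of these libraries, which may be technical. A comparison of subunit proteins was not made here. The text names the members, Pkm and Ncr1 as checks, up to 3 genes per list with the smallest p, neighbours by position, and the 5 genes most like the set. Promoters came from RefSeq. The plan was to name also every list gene that passed; between vehicle and WT these were too many, and examples were named. These, the printed promoters, the marker genes named, Ifng and the within-library ratios between members were chosen after values were seen. Members and lists were chosen with earlier results of these data known. Figures were drawn with matplotlib 3.10.9.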

Additional observations from a re-analysis of the deposited data

How the results depend on the processing

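The number of members past the threshold (0 for KO, 0 for TEPP-46, 7 for vehicle against WT, 0 for the difference of effects) was the same in all 68 combinations of comparison and alternative, and the members' median kept its sign in all 68. The median for vehicle against WT was 1.18 with quantile normalization, against 1.44. The medians with 1 library left out ran from -0.102 to -0.068 for KO, from -0.253 to -0.145 for TEPP-46, from 1.37 to 1.5 for vehicle against WT and from -0.181 to -0.054 for the difference of effects. Single members changed sign only in that difference: Tcp1 (0.04) was -0.001 with the replicate block, -0.001 without WT replicate 3 and -0.016 to 0.094 over all libraries left out in turn (lowest without TEPP-46 replicate 3), and Cct2 (-0.07) ran from -0.129 to 0.009 (highest without vehicle replicate 3); the cause was not tested.

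Same-numbered libraries of vehicle and TEPP-46 had correlations of deviations of 0.0523, 0.284 and 0.275, and those of WT and KO 0.0702 and -0.0967. The numbers were not taken as pairs in the main tests. Each vehicle and TEPP-46 library did correlate best with its own number, so pairing in the drug experiment is possible. Between same-numbered libraries the members' TEPP-46 to vehicle ratios ran from 0.78 (Cct4, replicate 1) to 0.94 (Cct4, replicate 2). With the replicate block the smallest adjusted p of a member under TEPP-46 was 0.103 (limma). All genes passing for KO were 11, and 7 with a pseudocount of 5, 0 with the replicate block, 25 with the spread from all groups and 5 to 21 with 1 library left out, a lone KO library being assumed to vary like WT. For TEPP-46 they were 0, and 1 with a pseudocount of 0.1, 3 for protein-coding genes only, 3 with the replicate block and 0 to 3 with 1 library left out. For the difference of effects they were 6, and 10 with a pseudocount of 0.1, 15 with the replicate block and 3 to 12 with 1 library left out. Read depth is unknown, which limits how small a difference could be detected.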
